A study of Homo sapiens with 15 samples.

Results

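The 37 genes described here belong to the integrated stress response and the unfolded protein response, and they were taken by symbol from a table of 19612 genes measured in H1975 lung adenocarcinoma cells. They fall into an ATF4 arm of 17 genes and an endoplasmic reticulum (ER) arm of 20 genes. The ATF4 arm holds ATF4 itself, its partner factors ATF3 and DDIT3, the stress-induced regulators DDIT4, TRIB3, SESN2 and CHAC1, the serine and one-carbon enzymes PHGDH, PSAT1, PSPH, SHMT2 and MTHFD2, the asparagine and amino acid uptake genes ASNS, SLC3A2, SLC7A5 and SLC7A1, and VLDLR. The ER arm holds the sensors and factors ATF6, ERN1, EIF2AK3 and XBP1, the chaperones and cochaperones HSPA5, HSP90B1, HYOU1, DNAJB9, DNAJC3, SDF2L1, CALR, CANX, MANF and CRELD2, the disulfide isomerases PDIA3, PDIA4 and PDIA6, and the degradation genes HERPUD1, SEL1L and EDEM1.

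When unfolded proteins build up in the ER, 3 membrane sensors respond. PERK, encoded by EIF2AK3, phosphorylates the initiation factor eIF2α, which slows general translation while the ATF4 message is translated more, and ATF4 then drives genes of amino acid uptake, serine synthesis and stress-induced regulation. The same step is used by kinases that sense amino acid shortage, heme shortage and double-stranded RNA, so the ATF4 arm also responds to stress outside the ER. IRE1, encoded by ERN1, splices the XBP1 message, and cleaved ATF6 together with spliced XBP1 drives chaperones, disulfide isomerases and genes of ER-associated degradation. Counts of reads per gene report neither ATF4 protein, nor the splicing of XBP1, nor the cleavage of ATF6.

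H1975 is an established lung adenocarcinoma line with the EGFR mutations T790M and L858R, which all groups carry. H1975–OR is a single resistant sub-line derived from it by prolonged growth in osimertinib, an inhibitor of mutant EGFR, and it was maintained in medium with 500 nM of the drug. The 5 groups, each of 3 libraries from separate passages (a, b and c), were H1975 with vehicle, H1975–OR with vehicle, H1975–OR with 100 nM 1,25(OH)2D3 (calcitriol, the vitamin D hormone), H1975–OR with 500 nM osimertinib, and H1975–OR with both agents. Treatment lasted 96 h, with doses at the start and at 48 and 92 h, in medium with charcoal-stripped serum. In bulk RNA, fewer cells that express a gene and less of its RNA per cell cannot be told apart. H1975–OR vehicle cells received no osimertinib during those 96 h, so the resistant state and release from the drug cannot be told apart in the comparison of the cell lines, and a test between passages measures the spread within 1 line only.

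Library totals ran from 4378030 to 6140120 estimated counts (median 4974785). Levels are given as CPM, counts relative to the library size after TMM scaling of all 15 libraries together. They are not divided by transcript length, so they can be compared between libraries but not between genes. The epithelial keratin KRT18 stood between 1779 and 2921 CPM in every library and the lung lineage factor NKX2-1 between 31.9 and 99.0 CPM, while the differentiated lung markers NAPSA and SFTPC did not exceed 2.25 and 0.827 CPM. EPCAM was at 75.0 to 207 CPM in H1975 and at no more than 12.7 CPM in H1975–OR. The epithelial markers KRT7, KRT19, CDH1 and CLDN4 were also lower in every H1975–OR vehicle library than in H1975, and KRT8 overlapped. KRT18 went the other way, at 1872, 2046 and 1779 CPM in H1975 and 2444, 2336 and 2554 CPM in H1975–OR vehicle cells. Of the markers of other cells, CD3E was at 0 everywhere and CD68 reached 38.6 CPM. Library 3a of the 1,25(OH)2D3 group had 1.54% of its counts on mitochondrial genes, against at most 1.05% in the other 14. It was left out of the tests, as in the study. Values with it kept in are given for the calls that it changed and for the main results on 1,25(OH)2D3 alone.

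Sequences near the start of the members are shown because the 2 arms carry different letters there. RefSeq promoters (GRCh38.p14, 250 bases before the start to 50 after it) were found for 34 of the 37 members. A core of the C/EBP-ATF element, to which ATF4 is known to bind, was searched as TGATGNAA on both strands. It was found in 5 of 15 ATF4-arm promoters (ATF3, ASNS, CHAC1, SLC3A2 and SLC7A1) and in 1 of 19 ER-arm promoters (HERPUD1), against 3.67% of all 27305 promoters. The ER stress element, known to be bound by ATF6 and XBP1 with NF-Y, was searched as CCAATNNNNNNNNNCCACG and was found in 6 of 19 ER-arm promoters (HSPA5, HSP90B1, XBP1, CALR, CANX and CRELD2), in 0 of 15 ATF4-arm promoters and in 0.0806% of all. Its second form, ATTGGNCCACG, was found in 3 of 19 ER-arm promoters (SDF2L1, HERPUD1 and HYOU1) and in 0.0549% of all. The UPR element TGACGTGG was found in 1 of 19 ER-arm promoters (HYOU1, where it overlaps a second-form element) and in 0.795% of all.

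Stretches from 6 of these promoters follow, read in the direction of the gene, with the matched letters in capitals. SDF2L1 is shown as a member that differed between the cell lines, and the other 5 were chosen after their values were seen, to show each element.
ATF3: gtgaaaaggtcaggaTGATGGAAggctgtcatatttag
HSPA5: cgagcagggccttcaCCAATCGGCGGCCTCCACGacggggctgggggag
XBP1: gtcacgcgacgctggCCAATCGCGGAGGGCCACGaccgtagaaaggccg
SDF2L1: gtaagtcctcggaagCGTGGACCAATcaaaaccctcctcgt
HERPUD1: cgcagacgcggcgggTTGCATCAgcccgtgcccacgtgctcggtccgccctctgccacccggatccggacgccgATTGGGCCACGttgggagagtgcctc
HYOU1: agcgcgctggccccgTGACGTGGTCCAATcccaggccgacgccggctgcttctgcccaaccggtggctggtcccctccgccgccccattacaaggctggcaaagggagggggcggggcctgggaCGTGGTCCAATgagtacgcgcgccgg
These lie at chr1:212565201-212565238 on the + strand (ATF3), chr9:125241376-125241424 on the - strand (HSPA5), chr22:28800588-28800636 on the - strand (XBP1), chr22:21642099-21642139 on the + strand (SDF2L1), chr16:56931951-56932050 on the + strand (HERPUD1) and chr11:119057259-119057408 on the - strand (HYOU1). In GENCODE release 44 the ATF3, SDF2L1, HERPUD1 and HYOU1 stretches lie wholly outside the annotated gene, and the last 7 bases of the HSPA5 stretch and the last 10 of the XBP1 stretch lie in an exon. The capitals mark the C/EBP-ATF core in ATF3, the ER stress element in HSPA5 and XBP1, the second form in SDF2L1, the core followed by the second form in HERPUD1, and the UPR element with the second form, then the second form again, in HYOU1. A match is a run of letters and no measure of binding.

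Summed over its 17 genes, the ATF4 arm stood at 1282, 1507 and 1514 CPM in H1975 and at 1374, 1096 and 1150.1 CPM in H1975–OR with vehicle. It stood at 1689, 1403 and 1532 CPM with osimertinib and at 1679.6, 1445 and 1584 CPM with both agents. With 1,25(OH)2D3 alone it stood at 1053 CPM in 3b and 1221 CPM in 3c, and at 1609.9 CPM in 3a. All 6 libraries that received osimertinib lay above the 3 H1975–OR vehicle libraries, which the untreated H1975 libraries overlapped. Such a sum leans on its most abundant genes, here ATF4 and SLC7A5. The ER arm, which leans on CALR and CANX, ran from 4747 to 6103 CPM over all 15 libraries, with every group overlapping every other.

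**Figure D1:**
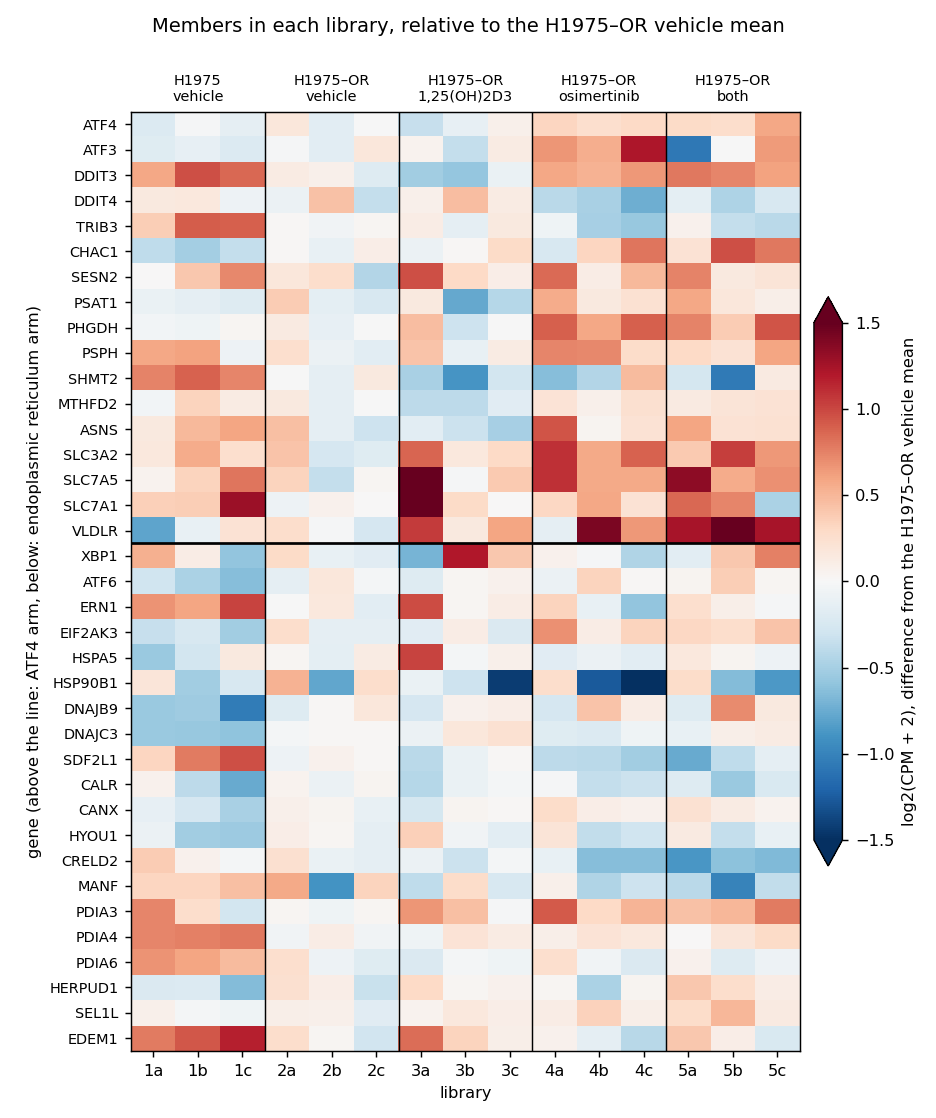
Each row is 1 of the 37 genes and each column 1 of the 15 libraries, with colour giving log2(CPM + 2) minus the mean of the H1975–OR vehicle libraries. In the ATF4 arm, above the line, most rows are red in the osimertinib and combination columns (DDIT3, PHGDH, SLC7A5 and SLC3A2 among them), DDIT4 and TRIB3 are mostly blue there, and library 3a is darkest for SLC7A5 and SLC7A1.

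The first comparison asked how vehicle-treated H1975–OR cells differ from vehicle-treated H1975 cells. In the ATF4 arm 3 genes were lower in the resistant cells and 0 were higher: DDIT3, SHMT2 and TRIB3. The ER arm was split, with ATF6, DNAJB9 and DNAJC3 higher and EDEM1, ERN1, PDIA4, PDIA6 and SDF2L1 lower. Across all 12513 genes tested, edgeR's quasi-likelihood test called 9.89% as higher and 10.3% as lower (adjusted p below 0.05). For the ATF4 arm this reads as 0 higher and 3 lower of 17, and for the ER arm as 3 higher and 5 lower of 20. The median log2 fold change was -0.29 in the ATF4 arm, 0.12 in the ER arm and 0.0061 over all genes. Resistant and parental libraries did not overlap for 29.4% of the ATF4 arm and 50% of the ER arm, against 39.2% of all genes. Such separation was thus common over all genes in this comparison.

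DDIT3, which encodes the stress-induced factor CHOP, stood at 25.5, 33.9 and 31.3 CPM in H1975 and at 18.0, 17.4 and 14.1 CPM in H1975–OR vehicle cells. All 3 resistant libraries were below all 3 parental libraries, and DDIT3 fell (log2 fold change -0.86, SE 0.23, adjusted p = 0.03, edgeR). TRIB3, a pseudokinase that dampens ATF4 signalling, stood at 98.2, 143 and 142 CPM in H1975 and 76.1, 72.8 and 77.1 CPM in H1975–OR. It fell without overlap of the groups (log2 fold change -0.75, SE 0.16, adjusted p = 0.0147, edgeR). SHMT2, the mitochondrial serine hydroxymethyltransferase that passes one-carbon units from serine, stood at 159, 174 and 157 CPM in H1975 and 93.3, 85.2 and 104 CPM in H1975–OR. It fell too, again with all resistant libraries lower (log2 fold change -0.78, SE 0.16, adjusted p = 0.0125, edgeR).

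ATF4 itself was not called. Its level was 282, 319 and 294 CPM in H1975 and 365, 289.8 and 324 CPM in H1975–OR, overlapping groups with an edgeR result of log2 fold change 0.14, SE 0.12, 95% interval -0.13 to 0.41, adjusted p = 0.438. The remaining 13 genes of the arm had log2 fold changes from -0.76 (SLC7A1, the cationic amino acid transporter, adjusted p = 0.0773 by edgeR) to 0.67 (CHAC1, which degrades glutathione, adjusted p = 0.273). SLC7A1 stood at 42.4, 42.8 and 82.6 CPM in H1975 and 30.9, 34.3 and 33.0 CPM in H1975–OR, and its groups did not overlap. CHAC1, at 2.77, 2.37 and 2.85 CPM and 4.3, 3.72 and 4.63 CPM, was higher in every resistant library. The serine synthesis enzyme PHGDH lay close to 0 on the log2 scale (0.043, 95% interval -0.30 to 0.38), as did DDIT4 (-0.03, 95% interval -0.52 to 0.47), an inhibitor of mTORC1.

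Among the ER sensors, ATF6 stood at 169, 149.5 and 134 CPM in H1975 and 190.5, 235 and 205 CPM in H1975–OR. It rose, with the groups apart (log2 fold change 0.49, SE 0.12, adjusted p = 0.0263, edgeR). ERN1, which encodes IRE1, stood at 17.7, 16.6 and 22.8 CPM in H1975 and 10.2, 11.8 and 9.06 CPM in H1975–OR and fell (log2 fold change -0.86, SE 0.24, adjusted p = 0.035, edgeR). The third sensor gene, EIF2AK3, was higher in all 3 resistant libraries and was not called (log2 fold change 0.40, SE 0.17, 95% interval 0.022 to 0.78, adjusted p = 0.125, edgeR). XBP1, at 157, 117 and 70.6 CPM and 132, 99.5 and 95.4 CPM, overlapped (log2 fold change -0.065, SE 0.31, 95% interval -0.77 to 0.64, adjusted p = 0.904, edgeR).

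The 2 cochaperones that were called higher are both J-domain proteins of the ER lumen, which activate the ATPase of HSPA5. DNAJC3 was at 105, 104 and 102 CPM in H1975 and 152, 157 and 158 CPM in H1975–OR, 2 tight groups far apart (log2 fold change 0.60, SE 0.091, adjusted p = 0.00338, edgeR). DNAJB9 was at 22.5, 23.0 and 15.5 CPM and 29.5, 34.5 and 38.6 CPM and rose likewise (log2 fold change 0.76, SE 0.20, adjusted p = 0.0311, edgeR). SDF2L1, which works with DNAJ proteins as part of the ER chaperone complex, went the other way, from 16.3, 23.2 and 26.5 CPM to 11.9, 13.2 and 12.7 CPM (log2 fold change -0.78, SE 0.24, adjusted p = 0.0488, edgeR). HSPA5 (BiP), the main ER chaperone of the Hsp70 family, was at 335, 407 and 546 CPM and 504, 446 and 537 CPM, with overlap (log2 fold change 0.22, SE 0.17, 95% interval -0.17 to 0.61, adjusted p = 0.397, edgeR). The other 6 chaperone genes (HSP90B1, HYOU1, CALR, CANX, MANF and CRELD2) were not called, with log2 fold changes from -0.24 (MANF) to 0.39 (HYOU1).

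Of the disulfide isomerases, which form and rearrange disulfide bonds in the ER, PDIA4 had the smallest p of all 37 genes. It was at 465, 473 and 483 CPM in H1975 and 269, 301 and 269 CPM in H1975–OR (log2 fold change -0.74, SE 0.094, adjusted p = 0.00163, edgeR). PDIA6 also fell, from 514, 483 and 446 CPM to 382, 304 and 283 CPM (log2 fold change -0.56, SE 0.13, adjusted p = 0.019, edgeR). PDIA3 overlapped between the lines (log2 fold change -0.32, SE 0.30, 95% interval -1.01 to 0.37, adjusted p = 0.498, edgeR). EDEM1, which hands misfolded glycoproteins to degradation, had the largest change among the called genes, from 76.1, 84.8 and 100.3 CPM to 52.4, 44.5 and 35.1 CPM (log2 fold change -0.97, SE 0.18, adjusted p = 0.00799, edgeR). The other degradation genes were not called: HERPUD1 had a log2 fold change of 0.39 (95% interval -0.042 to 0.82) and SEL1L one of 0.022 (95% interval -0.22 to 0.27).

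PDIA4, DNAJC3 and EDEM1 were called in all 12 alternative analyses, SHMT2 in 11, TRIB3 in 10, PDIA6 in 9, DDIT3 in 7, ATF6 and DNAJB9 in 6, SDF2L1 in 3 and ERN1 in 2. Of the 11 calls, the analysis without H1975 library b left 4, without H1975 library c 6, without H1975–OR vehicle library b 3 and without H1975–OR vehicle library c 5. Calls over all genes fell too, from 2521 to 1426 without H1975 library b, the lowest number of the alternatives. Without H1975 library a 12 were called (ERN1 lost, CALR and HYOU1 gained, both higher), and without H1975–OR vehicle library a 11 (ERN1 and SDF2L1 lost, ASNS and SLC3A2 gained, both lower). With library 3a kept in, 8 members were called (ATF6, ERN1 and SDF2L1 lost), where 13.3% of all genes were. DESeq2 called 12 members (SLC7A1 gained, lower), where it called 21.8% of all genes.

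**Figure D2:**
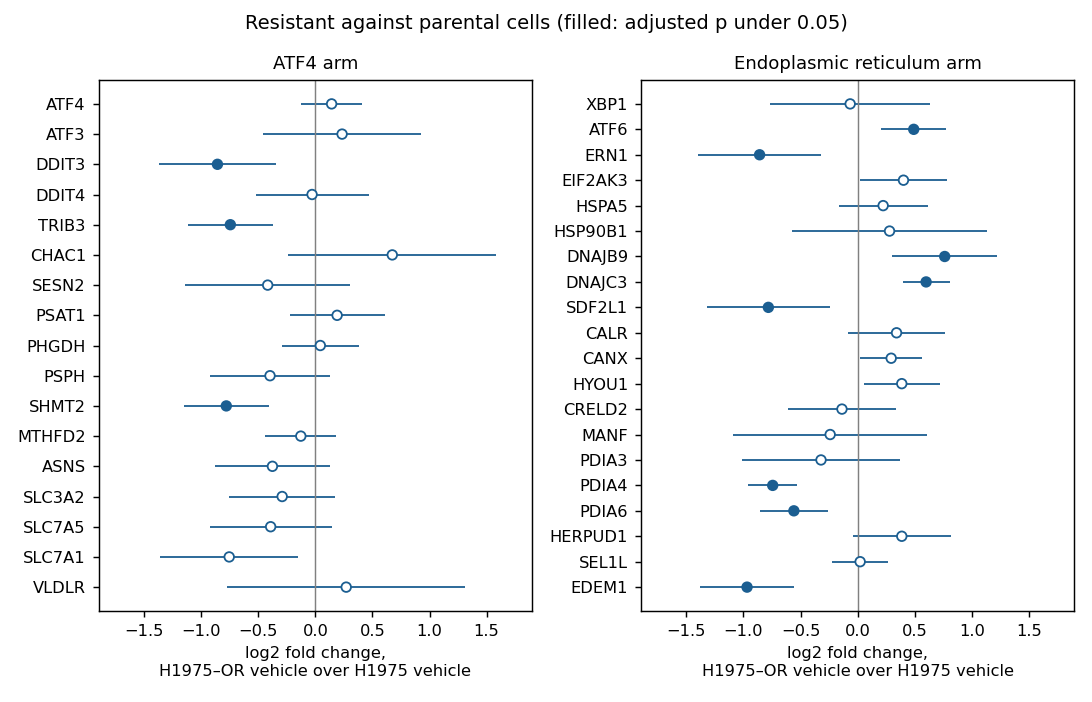
Points give the log2 fold change of each gene in H1975–OR vehicle cells over H1975 vehicle cells and lines its 95% confidence interval from edgeR, with filled points at an adjusted p under 0.05. The 3 filled points of the ATF4 arm (DDIT3, TRIB3 and SHMT2) lie below 0, and the 8 of the ER arm lie on both sides, from -0.97 for EDEM1 to 0.76 for DNAJB9.

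Other genes of the same pathways were counted in the same way, where 9.89% of all genes were called higher and 10.3% lower. Of 33 further ATF4 pathway genes tested, 5 were called higher and 1 lower. The higher ones were the neutral amino acid transporter SLC38A2 (log2 fold change 1.12), STC2 (1.06), NUPR1 (0.99), the seryl-tRNA synthetase gene SARS (0.56) and CEBPG (0.41), a partner of ATF4. The lower one was the methionyl-tRNA synthetase gene MARS (-1.21), at 146, 163 and 170.3 CPM in H1975 and 89.8, 55.4 and 59.4 CPM in H1975–OR. Of 34 further ER pathway genes tested, WFS1 (1.23), FKBP14 (0.69), DERL2 (0.62), MBTPS1 (0.59) and SIL1 (0.47) were called higher and the disulfide oxidase gene ERO1A (-1.01) lower. MBTPS1 encodes the protease that makes the first cut in ATF6, and it stood at 279, 268 and 271 CPM in H1975 and 381, 438 and 398 CPM in H1975–OR. The median log2 fold changes were 0.022 over the further ATF4 genes and 0.098 over the further ER genes.

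The next comparisons asked what osimertinib did to these genes in H1975–OR, alone or with 1,25(OH)2D3. Most ATF4-arm genes had more reads in the treated libraries, while the ER arm had no common direction. With osimertinib alone, 14 of 17 ATF4-arm genes had a positive log2 fold change over vehicle (median 0.49, against 0.0075 over all 12503 genes) and 8 of 20 ER-arm genes did (median -0.13). None passed the adjusted threshold by edgeR: 0 of 37 members, where 0.048% of all genes (6) did. At an unadjusted p under 0.05 the ATF4 arm had 6 genes higher and 1 lower and the ER arm 1 higher, where 3.62% of all genes were higher and 3.9% lower. DESeq2 called 1 member (PHGDH), where it called 0.911% of all genes. The 3 osimertinib libraries lay wholly above or below the 3 vehicle libraries for 58.8% of the ATF4 arm (8 genes above and 2 below) and 15% of the ER arm, against 12.8% of all genes.

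PHGDH, the first enzyme of serine synthesis, stood at 46.0, 38.3 and 41.6 CPM with vehicle, 79.5, 63.5 and 79.6 CPM with osimertinib and 71.6, 55.2 and 82.6 CPM with both agents. Every library with osimertinib was above every vehicle library. The edgeR result was log2 fold change 0.83, SE 0.18, 95% interval 0.43 to 1.22, adjusted p = 0.219 for osimertinib and log2 fold change 0.73, SE 0.18, 95% interval 0.33 to 1.12, adjusted p = 0.138 for both agents. Libraries of the same letter deviated together in these groups, and with the letter as a block PHGDH was called in both (0.82, adjusted p = 0.0366, and 0.72, adjusted p = 0.0165). In that blocked analysis 0.28% and 3.69% of all genes were called.

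SLC7A5, the light chain of the large neutral amino acid transporter LAT1, stood at 179.7, 110.4 and 145 CPM with vehicle, 306, 211 and 212 CPM with osimertinib and 364, 211 and 230.2 CPM with both agents. All treated libraries were above all vehicle libraries, and library a was the highest of each group. Without the block it was not called (log2 fold change 0.75, adjusted p = 0.518, and 0.88, adjusted p = 0.211, edgeR). With the letter as a block it was (0.76, adjusted p = 0.0366, and 0.87, adjusted p = 0.00721). SLC3A2, which encodes the heavy chain of the same transporter, stood at 97.8, 60.2 and 63.0 CPM, 157, 107 and 135 CPM and 95.1, 150.2 and 114 CPM in the same order. Its edgeR result was log2 fold change 0.85, SE 0.23, 95% interval 0.34 to 1.37, adjusted p = 0.379 for osimertinib and log2 fold change 0.69, SE 0.23, 95% interval 0.18 to 1.21, adjusted p = 0.256 for both agents, and here 1 combination library, 5a, fell within the vehicle range.

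DDIT3 stood at 18.0, 17.4 and 14.1 CPM with vehicle, 25.5, 24.4 and 27.0 CPM with osimertinib and 29.9, 28.7 and 25.9 CPM with both agents. The treated libraries lay above all vehicle libraries and partly within the range of untreated H1975 (25.5 to 33.9 CPM). By edgeR its result was log2 fold change 0.64, SE 0.20, 95% interval 0.20 to 1.08, adjusted p = 0.436 for osimertinib and log2 fold change 0.77, SE 0.20, 95% interval 0.33 to 1.21, adjusted p = 0.161 for both agents. ATF4 stood at 365, 289.8 and 324 CPM, 408, 386 and 400.4 CPM and 395, 391 and 486 CPM in the same order, with no overlap with vehicle in either treated group. The edgeR result was log2 fold change 0.29, SE 0.13, 95% interval 0.012 to 0.57, adjusted p = 0.645 for osimertinib and log2 fold change 0.37, SE 0.13, 95% interval 0.093 to 0.65, adjusted p = 0.259 for both agents.

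With osimertinib alone, the 3 genes of this arm with negative fold changes were the inhibitors DDIT4 and TRIB3, and SHMT2. DDIT4 stood at 50.3, 73.4 and 41.3 CPM with vehicle, 40.0, 37.7 and 31.5 CPM with osimertinib and 48.1, 38.3 and 45.1 CPM with both agents. All osimertinib libraries were below all vehicle libraries (log2 fold change -0.59, adjusted p = 0.544, edgeR), and the combination overlapped with vehicle. TRIB3 stood at 76.1, 72.8 and 77.1 CPM, 71.7, 52.6 and 50.1 CPM and 78.8, 58.5 and 56.4 CPM in the same order, with log2 fold changes of -0.37 and -0.23, neither called. SHMT2 (-0.12 and -0.33) spread widely, at 59.7, 68.8 and 131 CPM with osimertinib and 77.6, 43.96 and 104 CPM with both agents, where the same letter was highest in each group.

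With both agents against vehicle, 13 of 17 ATF4-arm genes had a positive log2 fold change (median 0.39) and 13 of 20 ER-arm genes did (median 0.11). Again 0 of 37 members were called by edgeR, where 0.496% of all genes were, and DESeq2 called 4 (DDIT3, PHGDH, SLC7A5 and VLDLR), where it called 2.79% of all genes. With unadjusted p-values below 0.05 stood 6 ATF4-arm genes, all higher, and 4 ER-arm genes, 2 in each direction, where 6.37% of all genes were higher and 6.09% lower. Combination and vehicle libraries did not overlap for 35.3% of the ATF4 arm and 25% of the ER arm, against 16.3% of all genes. VLDLR, the very low density lipoprotein receptor, had the largest value, at 7.16, 5.58 and 4.43 CPM with vehicle and 16.0, 24.2 and 16.0 CPM with both agents. The groups did not overlap, and the edgeR result was log2 fold change 1.70, SE 0.45, 95% interval 0.70 to 2.70, adjusted p = 0.166. With osimertinib alone VLDLR ran from 4.95 to 18.4 CPM and overlapped with vehicle (log2 fold change 0.96, SE 0.45, 95% interval -0.035 to 1.95, adjusted p = 0.672, edgeR). This comparison and the former share the vehicle libraries.

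**Figure D3:**
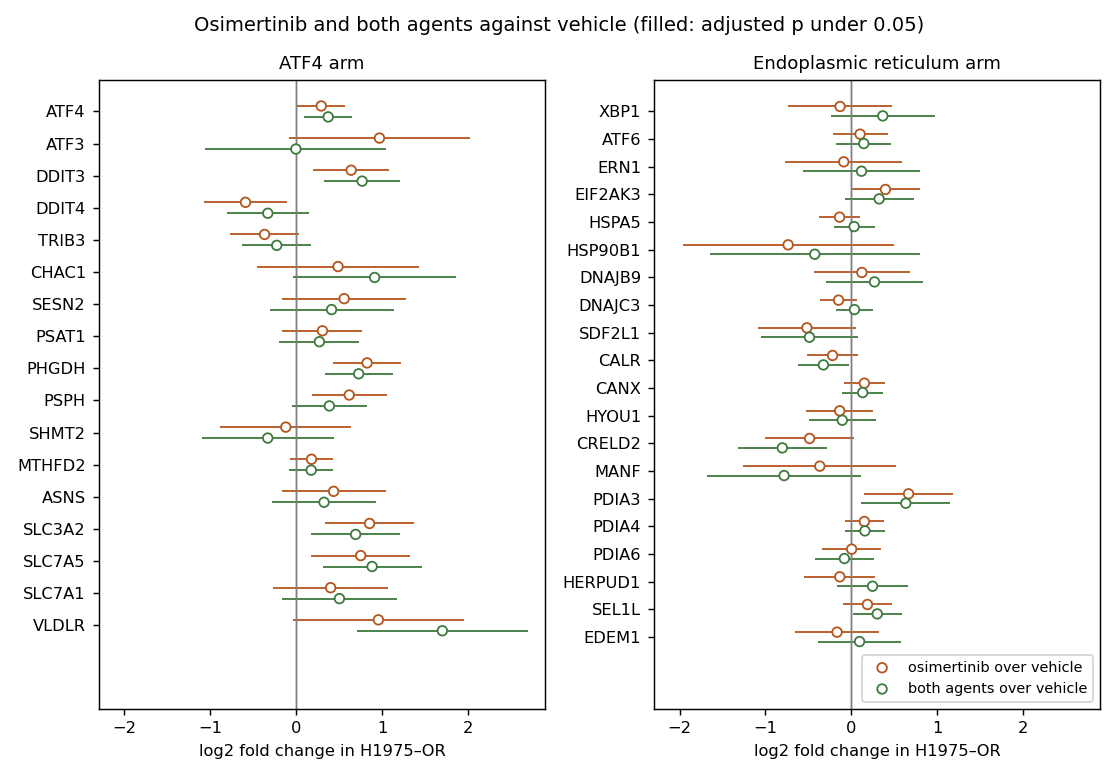
Points give log2 fold changes over H1975–OR vehicle cells for osimertinib alone (orange) and for both agents (green), with 95% confidence intervals from edgeR, and no point is filled because no gene reached an adjusted p under 0.05. In the ATF4 arm most points lie to the right of 0, up to 1.70 for VLDLR with both agents, while the ER arm scatters around 0 with CRELD2 at -0.80 with both agents.

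In the ER arm PDIA3 had the smallest p for osimertinib alone. It stood at 15.6, 14.5 and 15.6 CPM with vehicle, 30.4, 19.2 and 22.5 CPM with osimertinib and 21.3, 22.3 and 27.6 CPM with both agents, with no treated library in the vehicle range (log2 fold change 0.67, SE 0.23, 95% interval 0.15 to 1.18, adjusted p = 0.518 for osimertinib, edgeR). EIF2AK3 stood at 122, 81.1 and 95.3 CPM with osimertinib against 90.6, 68.0 and 68.4 CPM with vehicle (log2 fold change 0.40, SE 0.18, 95% interval -0.0048 to 0.80, adjusted p = 0.668, edgeR), where the groups overlapped. CRELD2, an ER-resident protein induced by ER stress, stood at 29.5, 23.0 and 22.4 CPM with vehicle, 22.8, 15.2 and 15.1 CPM with osimertinib and 12.6, 15.5 and 14.9 CPM with both agents. It had the smallest p of the arm for both agents and was called in neither comparison (log2 fold change -0.49, SE 0.23, adjusted p = 0.678 for osimertinib and log2 fold change -0.80, SE 0.23, 95% interval -1.32 to -0.28, adjusted p = 0.207 for both agents, edgeR).

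HSPA5 and XBP1, known transcripts of the ER stress response, were not called, and counts per gene do not report the splicing of XBP1. HSPA5 stood at 504, 446 and 537 CPM with vehicle, 438, 466 and 444 CPM with osimertinib and 549.7, 508 and 468 CPM with both agents. Its 95% interval on the log2 scale ran from -0.38 to 0.10 for osimertinib and from -0.21 to 0.27 for both agents (edgeR adjusted p = 0.868 and 0.942). XBP1 stood at 113, 106 and 78.5 CPM with osimertinib and 96.3, 143 and 184 CPM with both agents against 132, 99.5 and 95.4 CPM with vehicle, and its groups overlapped (log2 fold change -0.13, SE 0.27, 95% interval -0.74 to 0.48, adjusted p = 0.966 for osimertinib and log2 fold change 0.37, SE 0.27, 95% interval -0.24 to 0.97, adjusted p = 0.646 for both agents, edgeR). Calreticulin, CALR, was lower than vehicle in every combination library (1149.8, 896 and 1119.9 CPM against 1366, 1234 and 1354 CPM, log2 fold change -0.33, SE 0.14, 95% interval -0.63 to -0.026, adjusted p = 0.358, edgeR). HSP90B1, the ER member of the Hsp90 family, ran from 142 to 561 CPM within the osimertinib group alone, and its log2 fold change of -0.74 had a 95% interval of -1.97 to 0.49.

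The mean of the 2 osimertinib groups was set against the mean of the 2 groups without the drug, a contrast chosen after the former values were seen. Here 2 members were higher with osimertinib by edgeR, where 2.04% of all genes were called. These were PHGDH (log2 fold change 0.86, SE 0.14, 95% interval 0.56 to 1.16, adjusted p = 0.017) and DDIT3 (log2 fold change 0.89, SE 0.15, 95% interval 0.55 to 1.22, adjusted p = 0.0223), each higher in 6 of 6 libraries with osimertinib than in any of the 5 tested without it. These libraries did not overlap for 23.5% of the ATF4 arm and 5% of the ER arm, against 3.29% of all genes. PHGDH in library 3a, which was not tested, stood at 58.2 CPM, above combination library 5b at 55.2 CPM. In the ATF4 arm 15 of 17 log2 fold changes were positive (median 0.54), and 10 genes were higher and 2 lower at an unadjusted p under 0.05. In the ER arm 8 of 20 were positive (median -0.044), and 2 genes were higher and 3 lower at that unadjusted p, which 8.31% of all genes passed as higher and 8.07% as lower. With the replicate letter as a block 9 members were called, where 7.45% of all genes were: ASNS, ATF4, DDIT3, MTHFD2, PHGDH, PSAT1 and SLC7A5 higher, and CALR and DDIT4 lower. DESeq2 also called 9, with SLC3A2 and VLDLR in place of ASNS and CALR, where it called 5.95% of all genes. ASNS, the asparagine synthetase gene, had a blocked log2 fold change of 0.49, adjusted p = 0.0244, PSAT1 one of 0.52, adjusted p = 0.0125, and ATF4 one of 0.33, adjusted p = 0.0303. With library 3a kept in, where 0.794% of all genes were called, DDIT3 was still called (0.92, adjusted p = 0.0199) and PHGDH was not (0.73, adjusted p = 0.0594). Without H1975–OR vehicle library b or c, 1,25(OH)2D3 library b or c, or osimertinib library c, 0 members were called, without osimertinib library b or combination library b PHGDH alone was, and without H1975–OR vehicle library a PSAT1 and SLC3A2 were called as well. The number of all genes called went from 255 to 24 without 1,25(OH)2D3 library c, the lowest of the alternatives, so few calls were left for any gene there.

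Of 32 further ATF4 pathway genes tested in H1975–OR, NUPR1 was called higher with both agents against vehicle, at 35.2, 38.5 and 42.6 CPM with vehicle and 58.1, 88.8 and 82.8 CPM with both (log2 fold change 0.98, SE 0.17, adjusted p = 0.0398, edgeR). In that comparison 0.496% of all genes were called. Averaged over 1,25(OH)2D3, NUPR1 (log2 fold change 0.73, SE 0.13, adjusted p = 0.0236, edgeR) and SLC7A11, the cystine transporter (log2 fold change 0.75, SE 0.16, adjusted p = 0.0424, edgeR), were called higher, where 2.04% of all genes were called. NUPR1 with osimertinib alone stood at 60.5, 65.1 and 63.4 CPM. The median log2 fold change of these further genes was 0.18 with osimertinib alone and 0.14 with both agents, and that of 33 further ER pathway genes, of which 0 were called in either comparison, was -0.081 and -0.014.

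**Figure D4:**
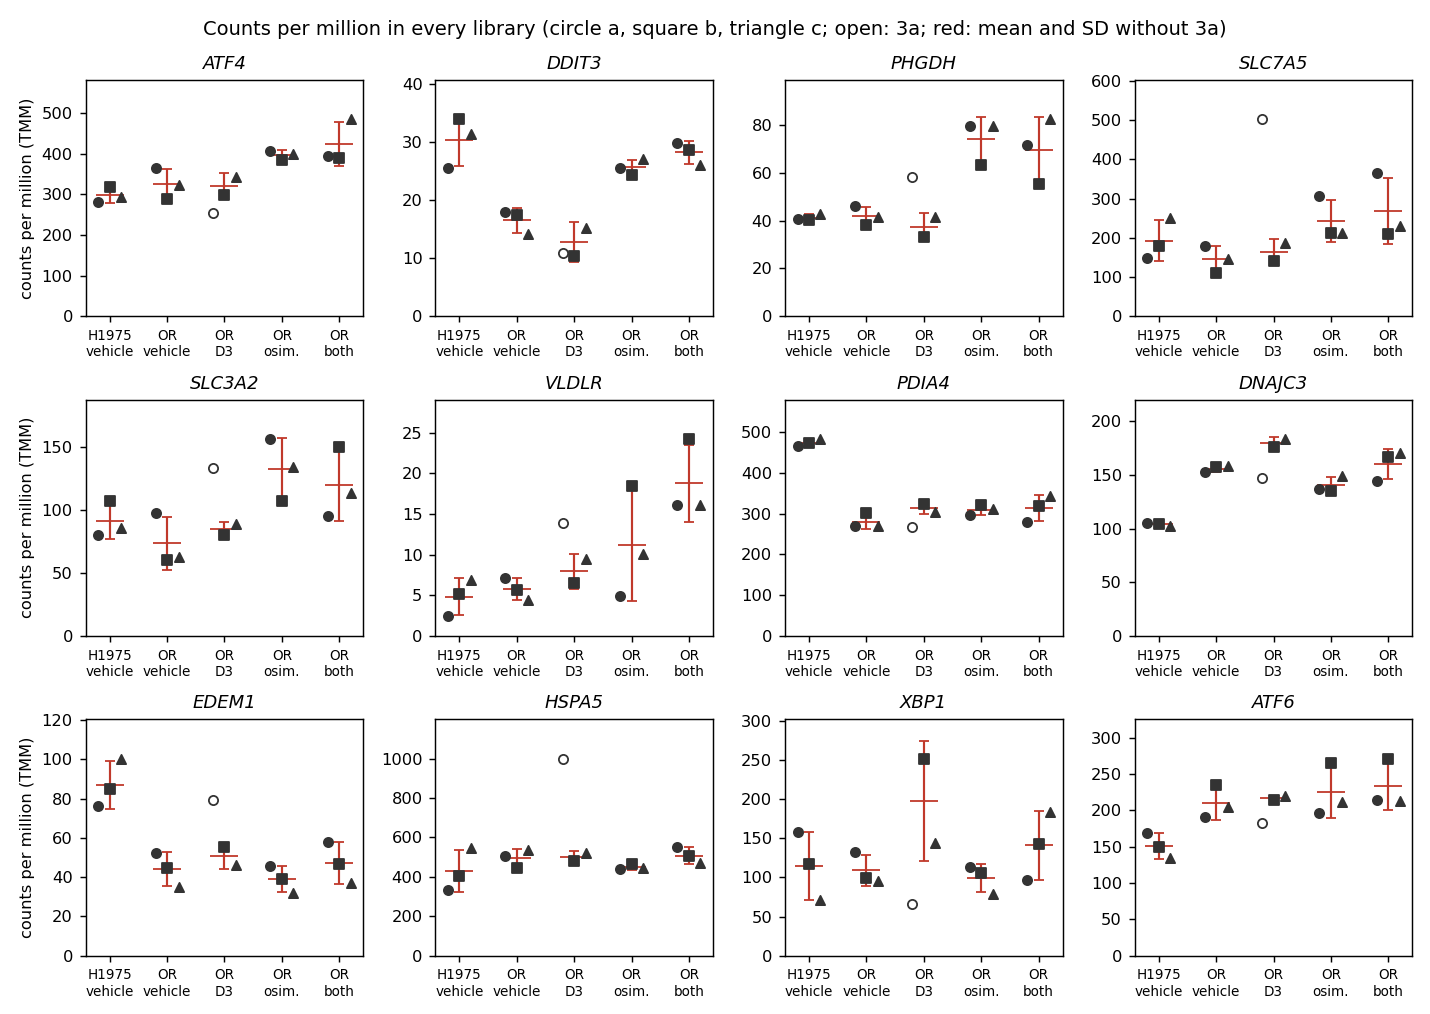
Each panel gives 1 gene, with CPM on the vertical axis from 0, the 5 groups on the horizontal axis, a marker for each library by letter, and the group mean and SD in red without library 3a (open circle). PHGDH, DDIT3 and SLC7A5 lie higher with osimertinib or both agents than with vehicle in H1975–OR, PDIA4 and DNAJC3 separate H1975 from every H1975–OR library, and EDEM1 does so from all but 3a.

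The remaining comparisons asked what 1,25(OH)2D3 did, alone and on top of osimertinib. No member was called in either arm with 1,25(OH)2D3 alone against vehicle by edgeR (0 of 37, where 0.152% of all genes were) or by DESeq2, which called 1% of all genes. The medians were -0.0008 in the ATF4 arm and 0.033 in the ER arm on the log2 scale. At an unadjusted p under 0.05, 2 ATF4-arm genes were lower and 1 ER-arm gene was higher, where 3.64% of all genes were higher and 3.63% lower. These 3 of 37 members are close to that share of all genes, and their values are given as a description. This comparison has 2 treated libraries, 3b and 3c, and so wide intervals. They did not overlap with vehicle for 23.5% of the ATF4 arm and 20% of the ER arm, against 25.4% of all genes.

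The 2 genes were the serine enzyme PSAT1 and SHMT2. PSAT1 stood at 132, 91.0 and 85.2 CPM with vehicle and at 58.2 and 74.5 CPM in 3b and 3c, both below the vehicle range (log2 fold change -0.63, SE 0.21, 95% interval -1.10 to -0.15, adjusted p = 0.531, edgeR), and at 112 CPM in 3a, within it. With 3a kept in, its log2 fold change was -0.32, adjusted p = 0.77. SHMT2 stood at 93.3, 85.2 and 104 CPM and at 50.1 and 76.9 CPM in 3b and 3c (log2 fold change -0.56, SE 0.19, 95% interval -0.99 to -0.14, adjusted p = 0.532, edgeR), with 3a also below vehicle at 66.5 CPM (with 3a kept in, -0.54, adjusted p = 0.532). MTHFD2, which follows SHMT2 in mitochondrial one-carbon metabolism, had the next smallest p in the arm (log2 fold change -0.29, SE 0.15, 95% interval -0.64 to 0.066, adjusted p = 0.756, edgeR), with all 3 treated libraries (93.5, 93.5 and 109.8 CPM) below all vehicle libraries (137, 113 and 123 CPM).

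XBP1 stood at 251 and 143 CPM in 3b and 3c against 132, 99.5 and 95.4 CPM with vehicle (log2 fold change 0.86, SE 0.34, 95% interval 0.087 to 1.63, adjusted p = 0.611, edgeR). Library 3a went the other way, at 65.7 CPM, and with it kept in the log2 fold change was 0.50, adjusted p = 0.795. On top of osimertinib, XBP1 had a log2 fold change of 0.50 (95% interval -0.11 to 1.11), with combination libraries at 96.3, 143 and 184 CPM. DNAJC3 (log2 fold change 0.21, SE 0.1, 95% interval -0.021 to 0.43, adjusted p = 0.716, edgeR) was higher in 3b and 3c (176 and 183 CPM) than in any vehicle library, and 3a was below at 147 CPM. HSP90B1 (log2 fold change -0.86, SE 0.43, 95% interval -1.84 to 0.12, adjusted p = 0.731, edgeR) overlapped. ATF4 (log2 fold change -0.022, SE 0.13, 95% interval -0.32 to 0.28, adjusted p = 0.99), DDIT3 (log2 fold change -0.36, SE 0.26, 95% interval -0.95 to 0.23, adjusted p = 0.825) and HSPA5 (log2 fold change 0.021, SE 0.19, 95% interval -0.42 to 0.46, adjusted p = 0.996) overlapped with vehicle as well (edgeR). With 3a kept in, the log2 fold change was 0.44, adjusted p = 0.734 for HSPA5, which stood at 999.7 CPM in that library, -0.12, adjusted p = 0.859 for ATF4, -0.44, adjusted p = 0.704 for DDIT3, 0.12, adjusted p = 0.824 for DNAJC3 and -0.60, adjusted p = 0.735 for HSP90B1 (edgeR).

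With 1,25(OH)2D3 added to osimertinib, no member was called by edgeR (0 of 37, where 0.096% of all genes were called) or by DESeq2 (0.445% of all genes). At an unadjusted p under 0.05 stood 0 members, where 2.07% of all genes were higher and 2.09% lower. The medians were -0.0036 in the ATF4 arm and 0.037 in the ER arm. Groups did not overlap for 0% of the ATF4 arm and 10% of the ER arm, against 7.93% of all genes. The smallest p in the ATF4 arm belonged to ATF3, VLDLR and DDIT4. ATF3, a stress-induced factor, spread from 3.01 to 14.4 CPM in the combination group and from 13.3 to 22.3 CPM with osimertinib (log2 fold change -0.97, SE 0.47, 95% interval -2.02 to 0.08, adjusted p = 1, edgeR). VLDLR had log2 fold change 0.75, SE 0.43, 95% interval -0.22 to 1.71, adjusted p = 1, and DDIT4 log2 fold change 0.26, SE 0.22, 95% interval -0.22 to 0.74, adjusted p = 1 (edgeR). In the ER arm HERPUD1, a component of the degradation complex, stood at 70.2, 49.1 and 70.8 CPM with osimertinib and 91.4, 83.0 and 74.8 CPM with both, without overlap (log2 fold change 0.38, SE 0.19, 95% interval -0.033 to 0.79, adjusted p = 1, edgeR). DNAJC3 had log2 fold change 0.19, SE 0.099, 95% interval -0.035 to 0.41, adjusted p = 1 (edgeR). ATF4 (-0.20 to 0.36), DDIT3 (-0.31 to 0.56), HSPA5 (-0.07 to 0.41) and XBP1 (-0.11 to 1.11) are given by their 95% intervals on the log2 scale, all of which include 0.

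The effect of 1,25(OH)2D3 with osimertinib minus its effect without differed from 0 for no member and no gene by edgeR (0 of 37 and 0% of 12503) at the adjusted threshold, and for 0 members at an unadjusted p under 0.05, where 1.22% of all genes were higher and 1.42% lower. DESeq2 called 11 genes (0.0648%), none of them a member. The widest intervals leave room for sizable differences. For PSAT1 the difference was log2 fold change 0.59, SE 0.32, 95% interval -0.11 to 1.30, adjusted p = 1, for DDIT3 log2 fold change 0.49, SE 0.30, 95% interval -0.17 to 1.15, adjusted p = 1, for MTHFD2 log2 fold change 0.28, SE 0.17, 95% interval -0.10 to 0.66, adjusted p = 1 and for HSP90B1 log2 fold change 1.17, SE 0.84, 95% interval -0.69 to 3.03, adjusted p = 1 (edgeR). For HERPUD1 it was 0.35, for PDIA4 -0.16, for XBP1 -0.36 (-1.27 to 0.55), for HSPA5 0.15 (-0.21 to 0.51) and for ATF4 0.10 (-0.32 to 0.52), each on the log2 scale with the 95% interval where given. Averaged over osimertinib, 1,25(OH)2D3 gave 0 calls among the 37 members by edgeR and by DESeq2, where edgeR called 0.368% and DESeq2 1.52% of all genes. At an unadjusted p under 0.05, 0 ATF4-arm genes and 2 ER-arm genes, both higher, passed, where 3.82% of all genes were higher and 3.62% lower. XBP1 had the smallest p there (log2 fold change 0.68, SE 0.20, 95% interval 0.23 to 1.13, adjusted p = 0.356, edgeR), followed by DNAJC3 (log2 fold change 0.20, SE 0.074, 95% interval 0.032 to 0.36, adjusted p = 0.55).

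Library 3a, left out of the tests, held the highest level of all 15 libraries for 5 of 37 members (13.5%), against 16.2% of all 12627 genes kept. HSPA5 reached 999.7 CPM there, where no other library exceeded 549.7 CPM. SLC7A5 reached 503 CPM and SLC7A1 97.7 CPM, against at most 364 and 82.6 CPM elsewhere. On log2(CPM + 2), 3a exceeded the mean of 3b and 3c by 1.61 for SLC7A5, 1.37 for SLC7A1 and 0.99 for HSPA5, and fell below it by 1.56 for XBP1 (-1.56). It was above both for 9 of 17 ATF4-arm genes and 7 of 20 ER-arm genes, 43.2% of the members against 42.1% of all genes. Library 3a also had the largest mitochondrial share, and the part of that share in these values was not tested.

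Letter a was compared with letters b and c within the groups. It was the highest of its group in all 4 H1975–OR groups for ASNS, PSAT1 and SLC7A5 in the ATF4 arm (17.6%) and for HSP90B1, HYOU1 and EDEM1 in the ER arm (15%), against 9.65% of all genes kept. With 3 genes in each arm, a difference from that share was not tested. With H1975 included, it was the highest in all 5 groups for PSAT1 (5.88%) and for HSP90B1 and HYOU1 (10%), against 3.77% of all genes kept. HSP90B1, for example, stood at 669, 437, 561 and 568 CPM in libraries 2a, 3a, 4a and 5a, against 142 to 561 CPM in the b and c libraries of H1975–OR. Libraries 4a and 5a had 1.04% of their counts on mitochondrial genes each and 2a 0.746%, against 0.424% to 0.774% in the b and c libraries of H1975–OR. In H1975, 1a had 1.05%, against 0.685% in 1b and 0.701% in 1c. The part of this in the letter a values was not tested. Within each letter, osimertinib minus vehicle had an ATF4-arm median of 0.39 (a), 0.43 (b) and 0.53 (c) on log2(CPM + 2), with 12, 13 and 15 of 17 genes higher. For both agents minus vehicle the medians were 0.14, 0.36 and 0.58, with 12, 13 and 14 of 17 genes higher. PHGDH was higher within each letter by 0.76, 0.70 and 0.90 with osimertinib and by 0.62, 0.51 and 0.95 with both agents. In the ER arm the within-letter medians for osimertinib were -0.066, 0.043 and -0.10.

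Levels of the members not given in full stood in these ranges over all 15 libraries. In the ATF4 arm, ASNS ran from 41.4 to 116 CPM, PSPH, which ends serine synthesis, from 25.8 to 49.9 CPM, MTHFD2 from 93.5 to 156 CPM, SESN2, a stress-induced inhibitor of mTORC1, from 7.33 to 22.7 CPM, CHAC1 from 2.37 to 10.1 CPM and ATF3 from 3.01 to 22.3 CPM. CHAC1 and ATF3 are low, with few counts behind each value. PSPH was among the genes higher with osimertinib at an unadjusted p under 0.05 (log2 fold change 0.62, SE 0.20, 95% interval 0.18 to 1.05, adjusted p = 0.448, edgeR), at 49.9, 49.1 and 35.8 CPM against 35.0, 27.3 and 25.8 CPM. In the ER arm, the lectin chaperones CALR and CANX ran from 778 to 1373 and from 1023 to 1732 CPM, HYOU1, a large Hsp70-like chaperone, from 146 to 274 CPM, MANF, a secreted ER stress protein, from 8.7 to 29.9 CPM, SEL1L, the adaptor of the HRD1 ubiquitin ligase, from 278 to 443 CPM and HERPUD1 from 43.1 to 91.4 CPM. SEL1L was the second ER-arm gene higher with both agents at an unadjusted p under 0.05 (log2 fold change 0.30, SE 0.13, 95% interval 0.017 to 0.59, adjusted p = 0.368, edgeR). ATF4, ASNS, PSAT1, PSPH, MTHFD2, SLC7A5, HSPA5, XBP1 and PDIA3 have named copies in GENCODE release 44 that are no rows of the count table, so reads shared with a copy make their levels uncertain.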

How the data were processed

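RNA was sequenced on a NextSeq500 from 15 stranded, rRNA-depleted libraries. The authors quantified transcripts with Kallisto on hg38 and summed them to genes with tximport, and the deposited values are estimated counts per gene, not normalized. The submitters' processing notes also name STAR 2.5.2b and CASAVA 1.8.2 and give Kallisto as version 0.43.0. The annotation is not given in the sources used here. Estimated counts can split reads between a gene and its copies.

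Counts were rounded and tested with edgeR 4.0.16 (R 4.3.3, TMM, filterByExpr with a minimum count of 10 and a minimum total of 15, quasi-likelihood F-test, Benjamini-Hochberg over all genes, called at an adjusted p under 0.05). Standard errors are the log2 fold change over the square root of F. Resistant against parental cells and 1,25(OH)2D3 alone were tested in 8 libraries (12513 genes), and the other comparisons in the 11 H1975–OR libraries without 3a (12503 genes). All 37 members passed the filter in both. CPM for display uses 1 TMM scaling of 15 libraries (12627 genes), and differences within a letter use a pseudocount of 2 CPM. Library totals of 4378030 to 6140120 limit precision for genes of few CPM, and 3 counts are 0.477 to 0.708 CPM.

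Members and lists were chosen with earlier results of these data known. Full statistics go to called members, otherwise the 3 smallest p of an arm (8 largest changes if more are called), to ATF4, DDIT3, HSPA5 and XBP1 throughout, and to called genes of the other pathway lists. Other genes named with statistics were chosen after their values were seen. Positions come from GENCODE release 44 and promoters from RefSeq (GRCh38.p14). Same-letter libraries of the vehicle, osimertinib and combination groups deviated together (every correlation of deviations from group means 0.119 to 0.466), which is taken from the data, since no label says what a letter marks beyond separate passages. Alternatives were DESeq2 1.42.0, RLE scaling, no filter, library 3a kept in, the replicate block, only the groups compared and leaving out each replicate. The scripts were tested on simulated data.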

Additional observations from a re-analysis of the deposited data

How the results depend on the processing

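The replicate block took the members called in H1975–OR against H1975 vehicle cells from 11 to 6, in osimertinib against vehicle from 0 to 2, in both agents against vehicle from 0 to 2 and in the averaged osimertinib contrast from 2 to 9, and changed no other count of called members. Over all genes the block called 17.2%, 0.28%, 3.69% and 7.45% in these, against 20.1%, 0.048%, 0.496% and 2.04% without it. The H1975 and H1975–OR vehicle libraries of 1 letter share only that letter (correlations -0.0294 to 0.0224). Why calls were lost there under the block was not tested. DESeq2 called 12 members for H1975–OR against H1975, 1 for osimertinib, 4 for both agents and 9 for the averaged contrast. Of all genes it called 21.8%, 0.911%, 2.79% and 5.95% in these. Keeping library 3a left 1 in the averaged contrast and 8 in H1975–OR against H1975, where 0.794% and 13.3% of all genes were called. Leaving out 1 replicate at a time gave 3 to 12 members in H1975–OR against H1975 and 0 to 4 in the averaged osimertinib contrast. Each leave-out fit holds fewer libraries, and the cause of the changed counts was not tested. Comparing only the groups at hand was not run for the difference or the averaged contrasts, which use all groups.

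Over all genes, the calls ranged over the alternatives from 1426 to 2954 for H1975–OR against H1975 (2521 as reported), from 5 to 126 for 1,25(OH)2D3 alone (19), from 1 to 116 for osimertinib (6), from 2 to 64 for both agents against osimertinib (12), from 4 to 461 for both agents against vehicle (62), from 0 to 11 for the difference of the 1,25(OH)2D3 effects (0), from 24 to 931 for the averaged osimertinib contrast (255) and from 11 to 199 for the averaged 1,25(OH)2D3 contrast (46).

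Signs turned for members near 0. With the replicate block XBP1 was at 0.0032 for H1975–OR against H1975, and for 1,25(OH)2D3 alone ATF4 was at 0.0039 (0.00014 in the 11 libraries) and HSPA5 at -0.049. With 3a kept in, HSPA5 for 1,25(OH)2D3 alone was at 0.44, and the difference of the 1,25(OH)2D3 effects was -0.26 for HSPA5 and 0.0052 for XBP1, and ATF4 was at -0.022 for the averaged 1,25(OH)2D3 contrast. Leaving out 1 replicate, XBP1 ranged from -0.34 to 0.22 for H1975–OR against H1975, from -0.23 to 0.027 for osimertinib and from -0.71 to 0.10 for the difference of the 1,25(OH)2D3 effects. ATF4 ranged from -0.13 to 0.079 for 1,25(OH)2D3 alone, from -0.027 to 0.14 for both agents against osimertinib, from -0.0047 to 0.21 for the difference and from -0.025 to 0.078 for the averaged 1,25(OH)2D3 contrast. HSPA5 ranged from -0.049 to 0.082 for 1,25(OH)2D3 alone and from -0.041 to 0.098 for both agents against vehicle, and DDIT3 from -0.27 to 0.0074 for the averaged 1,25(OH)2D3 contrast.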
